A study of Mus musculus with 8 samples.

Results

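The mevalonate pathway to squalene was followed through 9 genes, Acat2, Hmgcs1, Mvk, Pmvk, Mvd, Idi1, Fdps, Fdft1 and Sqle, chosen by name as enzymes of its successive reactions and found by Ensembl identifier among 55385 genes of the count table. All 9 passed the filter on low counts that left 17445 genes. The libraries came from R1 mESCs, a mouse embryonic stem cell line labelled wild type and grown without feeder cells in N2B27 medium with 2i and Lif. Cells were infected with shRNA-containing lentivirus for 2 days and then selected with puromycin for 3 days in every group. In all, 3 biological replicates carried shRNA1 against Eftud2, a core component of the spliceosome, 3 carried shRNA2 against the same gene, and 2 carried the non-targeting control, nt-shRNA. A hairpin lowers its target only in part, and each hairpin had 1 sequence, so a difference between shRNA1 and shRNA2 cannot be told apart from a difference between the hairpin sequences themselves.

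The mevalonate pathway builds isoprenoids from acetyl-CoA in the cytosol. Acetyl units are joined to HMG-CoA and reduced to mevalonate. Mevalonate is phosphorylated and decarboxylated to isopentenyl diphosphate, and these units are condensed to farnesyl diphosphate. Farnesyl diphosphate is a branch point: it is used for prenyl groups, dolichol and ubiquinone, or is joined to squalene, which is oxidised and closed to the first sterol on the way to cholesterol. Transcription of these enzymes is known to be raised by SREBP2, the product of Srebf2, when sterols in the membrane are low, and SREBP proteins act with NF-Y, which binds CCAAT, and Sp1, which binds GGGCGG. The step from HMG-CoA to mevalonate was not analysed here.

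Promoter windows are shown for 3 members because these genes all fell against nt-shRNA but differed in how far they fell. Hmgcs1 was among those with the larger decreases, and Mvk and Acat2 had the smallest decreases with shRNA2. RefSeq windows (GRCm38.p6) reach from 250 bases before to 50 bases after an annotated start, 300 bases in all, and were matched by symbol for 6 of the 9 genes: Acat2, Hmgcs1, Mvk, Pmvk, Mvd and Idi1. Pmvk has 2 windows, so that 7 windows were searched. Each window is written 5′ to 3′ on the strand of its gene, with capitals at the motifs found on either strand. The Hmgcs1 window is chr13:119690101-119690400 on the plus strand, the Mvk window is chr5:114444019-114444318 on the plus strand, and the Acat2 window is chr17:12960676-12960975 on the minus strand.
Hmgcs1: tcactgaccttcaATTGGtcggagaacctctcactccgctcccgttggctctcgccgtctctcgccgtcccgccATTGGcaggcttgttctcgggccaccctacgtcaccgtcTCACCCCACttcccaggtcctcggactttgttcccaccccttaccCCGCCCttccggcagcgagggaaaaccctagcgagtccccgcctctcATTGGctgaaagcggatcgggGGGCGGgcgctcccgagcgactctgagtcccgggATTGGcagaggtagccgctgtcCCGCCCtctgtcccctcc
Mvk: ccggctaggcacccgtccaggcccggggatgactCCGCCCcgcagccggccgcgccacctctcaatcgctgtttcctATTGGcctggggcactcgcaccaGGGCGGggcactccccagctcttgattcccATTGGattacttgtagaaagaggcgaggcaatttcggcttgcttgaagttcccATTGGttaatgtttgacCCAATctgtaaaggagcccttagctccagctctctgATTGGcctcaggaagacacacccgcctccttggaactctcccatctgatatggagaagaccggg
Acat2: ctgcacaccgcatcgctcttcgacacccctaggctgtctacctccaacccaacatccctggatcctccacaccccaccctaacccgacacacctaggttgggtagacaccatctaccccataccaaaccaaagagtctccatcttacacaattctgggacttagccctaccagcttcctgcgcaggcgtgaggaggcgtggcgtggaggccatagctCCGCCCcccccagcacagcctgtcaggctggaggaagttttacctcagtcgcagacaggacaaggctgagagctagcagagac

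Both strands of the windows were searched for TCACNCCAC, a form of the sterol regulatory element, for the NF-Y box CCAAT, for the Sp1 box GGGCGG, and for the E-box CACGTG. These motifs share no letters at any of the marked positions. TCACNCCAC was found in 1 of the 7 windows, that of Hmgcs1, as TCACCCCAC at position -137 from the start. It was found in 1.24% of all 32851 RefSeq windows of this length. CCAAT was present in 5 of the 7 windows, 1 of the 2 of Pmvk among them, against 37.4% of all windows. Mvk held 5 copies of it, Hmgcs1 held 4 and Acat2 held none. GGGCGG was present in 5 of the 7 windows, none of them of Pmvk, against 35.7% of all windows, with 3 copies in Hmgcs1, 2 in Mvk and 1 in Acat2. CACGTG was in none of the 7, against 7.15% of all windows. A match shows only that these letters stand in the window.

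Levels are given as CPM, the share of a library's counts scaled to a fixed total, after TMM normalization, a scaling between libraries, and were compared with edgeR's quasi-likelihood test, with Benjamini-Hochberg adjustment over all 17445 genes and a threshold of 0.05. Total counts ran from 19569525 to 29871048 per library, so that 3 counts correspond to between 0.105 and 0.148 CPM, and the lowest member, Fdps, had between 155 and 505 counts. The targeted gene Eftud2 had 231.9, 229.2 and 225.3 CPM with shRNA1, 198.2, 202.1 and 234.7 CPM with shRNA2, and 262.3 and 255.7 CPM with nt-shRNA. The log2 fold change of Eftud2 was -0.18 with shRNA1 (SE 0.0678, adjusted p = 0.0514), just short of the threshold, and -0.29 with shRNA2 (SE 0.0678, adjusted p = 0.00122). By qPCR the paper reports a larger decrease of Eftud2 with either hairpin, and its western blot shows less EFTUD2 protein. Why the counts fell less was not tested. The difference between the hairpins was not called for Eftud2 (log2 fold change -0.11, adjusted p = 0.164), and shRNA2 replicate 3 lay above all 3 shRNA1 libraries. Without shRNA2 replicate 3 the difference was -0.19 and was called (adjusted p = 0.0127). The summed level of 12 pluripotency markers was between 7563 and 8305 CPM in all libraries, which matches the labelled cell type, but the single markers moved in both directions. Of the 12, 3 were called lower and 6 higher with shRNA1, and 3 lower and 8 higher with shRNA2, against 17.1% lower and 13.8% higher, and 28.7% lower and 27.2% higher, of all genes tested. With shRNA2 the log2 fold change was 1.32 for Klf4, 0.91 for Tbx3 and 0.76 for Nanog, and -0.96 for Dppa5a and -0.86 for Utf1, all called. The summed level of 8 fibroblast markers was between 7.91 and 11.2 CPM, with Col3a1, Lum and Dcn at 0 or 1 count in every library. Of the 4 fibroblast markers that passed the filter, Col1a2 was called higher, from 0.429 CPM with nt-shRNA to 1.05 CPM with shRNA1 (log2 fold change 1.27, adjusted p = 0.0103) and 1.38 CPM with shRNA2 (1.66, adjusted p = 4.3e-04). The other 3 were not called, although Col1a1 was higher in every knockdown library (0.43 with either hairpin, adjusted p = 0.0996 and 0.0692). Summed markers of other lineages reached between 67.6 and 83.3 CPM (6 neural genes), 32.1 and 44.8 CPM (6 endoderm genes) and 26.2 and 32.9 CPM (6 mesoderm genes). Of the 6 neural genes, 1 was lower and 3 higher with shRNA1, and 1 lower and 2 higher with shRNA2. Of 4 endoderm genes tested, none was called with shRNA1 and 1 was lower with shRNA2. Of 5 mesoderm genes tested, 1 was lower and 1 higher with shRNA1, and 1 lower and 2 higher with shRNA2. The shares of all genes given above stand beside these counts. The neural marker Neurod1 was at 0.166 CPM with nt-shRNA, 1.88 CPM with shRNA1 and 8.75 CPM with shRNA2, while the neural marker Nes was at 58.9, 43.0 and 22.7 CPM in the same order. The part of these markers in the results below was not tested.

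All 9 genes were downregulated with shRNA1 and all 9 with shRNA2 relative to nt-shRNA, and the question is how evenly the steps of the pathway fell. Over all genes tested, 17.1% were called lower with shRNA1 and 28.7% with shRNA2. Over the 9 genes the log2 fold changes had a median of -0.63 with shRNA1 and -0.83 with shRNA2, against -0.0069 and 0.0040 for all genes tested. For each of the 9 genes, every knockdown library lay below both nt-shRNA libraries. That held for 30.2% of all genes tested with shRNA1 and for 36% with shRNA2. The summed level of the 9 genes was 605.0, 540.9 and 607.6 CPM with shRNA1, 524.9, 513.6 and 516.4 CPM with shRNA2, and 976.8 and 929.1 CPM with nt-shRNA. The comparisons with nt-shRNA share the same 2 control libraries, so both carry any deviation of these libraries. In bulk libraries, fewer cells with a transcript and less of it per cell cannot be told apart. Fragments that fell on 2 genes were not counted by the authors, which bears most on Fdps, described below.

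**Figure D1:**
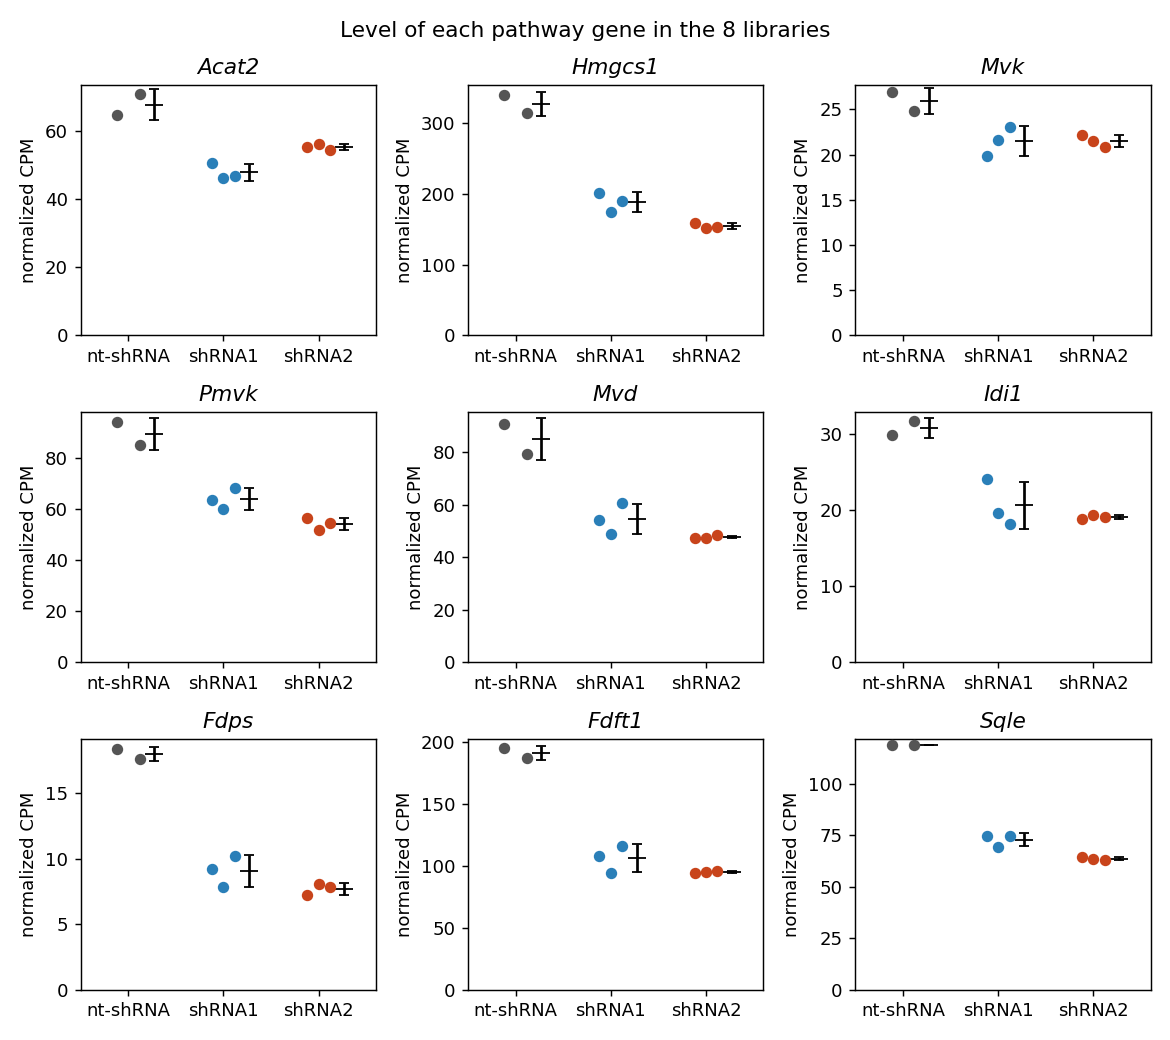
Level of the 9 genes in the 8 libraries, in normalized CPM on linear axes from 0. Each point is 1 library, and the bar beside each group is its mean ± SD. The nt-shRNA libraries lie above every knockdown library in each panel, and the gap is widest in proportion for Fdps and narrowest for Mvk.

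The first step, the joining of 2 acetyl-CoA to acetoacetyl-CoA by the cytosolic thiolase Acat2 (chr17:12942890-12960747, minus strand, mm10), fell least of all with shRNA2 apart from Mvk. Acat2 was at 50.7, 46.2 and 46.7 CPM with shRNA1, 55.3, 56.2 and 54.6 CPM with shRNA2, and 64.7 and 71.0 CPM with nt-shRNA. The shRNA2 libraries lay between the other groups, with no overlap on either side. Relative to nt-shRNA, its log2 fold change was -0.50 with shRNA1 (SE 0.0699, adjusted p = 2.8e-05), or 70.5% of the nt-shRNA level, and -0.29 with shRNA2 (SE 0.0698, adjusted p = 0.0015), or 81.6%. Of all 100-base stretches of Acat2 transcripts, 28.9% also occur in other genes, mainly the copy Acat3, and fragments that aligned to more than 1 place were left out. Acat3 itself, which stands between Acat2 and the gene Tcp1 and overlaps the latter, was between 0.535 and 1.12 CPM. The neighbouring gene Tcp1, a subunit of a chaperonin, did not fall: its log2 fold change was 0.047 with shRNA1 (adjusted p = 0.586) and 0.18 with shRNA2 (adjusted p = 0.0156), the latter not called without nt-shRNA replicate 1 (0.109) or nt-shRNA replicate 2 (0.0635).

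The HMG-CoA synthase Hmgcs1 (chr13:119690379-119708260, plus strand), which adds the third acetyl unit, fell further. Hmgcs1 was at 201.1, 174.0 and 189.8 CPM with shRNA1, 159.2, 151.2 and 152.4 CPM with shRNA2, and 338.8 and 314.1 CPM with nt-shRNA. The groups were ordered nt-shRNA, shRNA1 and shRNA2 without overlap. On the log2 scale Hmgcs1 changed by -0.79 with shRNA1 (SE 0.0650, adjusted p = 8.8e-08) and -1.08 with shRNA2 (SE 0.0652, adjusted p = 2.2e-10), which left 57.7% and 47.3% of the nt-shRNA level. Hmgcs1 had the smallest adjusted p of the 9 genes in both comparisons.

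The next 3 enzymes turn mevalonate into isopentenyl diphosphate. Mevalonate kinase, Mvk (chr5:114444269-114460591, plus strand), had the smallest decrease of the pathway with either hairpin. Mvk was at 19.8, 21.6 and 23.1 CPM with shRNA1, 22.2, 21.6 and 20.8 CPM with shRNA2, and 26.9 and 24.9 CPM with nt-shRNA. The knockdown groups overlapped each other, and the gap from their highest library to the lower nt-shRNA library was small. On the log2 scale Mvk changed by -0.27 with both shRNA1 (SE 0.0901, adjusted p = 0.0313) and shRNA2 (SE 0.0904, adjusted p = 0.0176). These calls were the weakest of the pathway: without nt-shRNA replicate 1, the adjusted p was 0.255 with shRNA1 and 0.158 with shRNA2. The call with shRNA1 was also lost without shRNA1 replicate 1 (adjusted p = 0.122), without shRNA1 replicate 2 (0.0826), without shRNA2 replicate 1 (0.0503) and without nt-shRNA replicate 2 (0.0596).

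Mvk starts 209 bases from Mmab, which lies on the opposite strand and encodes an enzyme of vitamin B12 metabolism. Mmab was at 15.4, 14.7 and 17.4 CPM with shRNA1, 14.9, 14.0 and 11.98 CPM with shRNA2, and 24.8 and 22.7 CPM with nt-shRNA. Mmab, which is no pathway enzyme, was called lower in both comparisons, with log2 fold changes of -0.58 (adjusted p = 4.1e-04) and -0.80 (adjusted p = 4.4e-06). The difference between the changes of these neighbours was not tested. No exonic base is shared between Mvk and another gene.

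Phosphomevalonate kinase, Pmvk (chr3:89454541-89469013, plus strand), was at 63.4, 59.8 and 68.2 CPM with shRNA1, 56.3, 51.7 and 54.7 CPM with shRNA2, and 93.8 and 84.9 CPM with nt-shRNA. All 3 groups were apart. For Pmvk the log2 fold change was -0.48 with shRNA1 (SE 0.0720, adjusted p = 5.6e-05) and -0.72 with shRNA2 (SE 0.0725, adjusted p = 1.2e-07). The decarboxylase Mvd (chr8:122433601-122443422, minus strand), which releases isopentenyl diphosphate, was at 54.1, 48.9 and 60.5 CPM with shRNA1, 47.4, 47.3 and 48.3 CPM with shRNA2, and 90.5 and 79.1 CPM with nt-shRNA. The shRNA2 libraries of Mvd lay within 1 CPM of each other and just below the lowest shRNA1 library. Mvd changed on the log2 scale by -0.63 with shRNA1 (SE 0.0813, adjusted p = 1.2e-05) and -0.83 with shRNA2 (SE 0.0819, adjusted p = 8.8e-08), the median of the pathway in both comparisons.

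Idi1 (chr13:8885501-8892451, plus strand) is the isomerase that provides the second kind of 5-carbon unit. Idi1 was at 24.04, 19.6 and 18.1 CPM with shRNA1, 18.8, 19.3 and 19.0 CPM with shRNA2, and 29.8 and 31.7 CPM with nt-shRNA. The shRNA1 libraries were spread around the shRNA2 libraries, with replicate 1 the highest. Against nt-shRNA the log2 fold change was -0.58 with shRNA1 (SE 0.102, adjusted p = 2.6e-04) and -0.69 with shRNA2 (SE 0.103, adjusted p = 1.3e-05).

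The farnesyl diphosphate synthase Fdps (chr3:89093588-89101959, minus strand) had the largest decrease of the 9 genes in both comparisons and is the member whose main mRNA could be counted over the smallest share of its bases. Fdps was at 9.20, 7.80 and 10.2 CPM with shRNA1, 7.21, 8.03 and 7.80 CPM with shRNA2, and 18.4 and 17.6 CPM with nt-shRNA. The knockdown groups overlapped and both lay far below nt-shRNA. The log2 fold change was -0.98 with shRNA1 (SE 0.117, adjusted p = 5.6e-06) and -1.23 with shRNA2 (SE 0.120, adjusted p = 8.2e-08), or 50.7% and 42.7% of the nt-shRNA level. Of the 1237 bases of the main Fdps mRNA, 945 (76.39%) also lie in exons of the annotated gene Gm43738 on the same strand, and fragments on such bases were assigned to neither gene. Gm43738 had between 0 and 2 counts in each library. Of the Fdps bases that could be counted, 90.53% lie outside the main mRNA, in exons of its other annotated transcripts. The table gives no positions within a gene, so how the counted Fdps fragments divide between the main mRNA and the other exons was not tested, and the level of the main mRNA cannot be read from these counts.

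The squalene synthase Fdft1 (chr14:63145150-63179578, minus strand), the first enzyme committed to sterols, was at 108.4, 93.9 and 116.3 CPM with shRNA1, 94.2, 95.1 and 95.7 CPM with shRNA2, and 195.4 and 187.1 CPM with nt-shRNA. The nt-shRNA libraries were far above the others, while shRNA1 replicate 2 lay just below all 3 shRNA2 libraries. The log2 fold change of Fdft1 was -0.85 with shRNA1 (SE 0.0717, adjusted p = 1.3e-07) and -1.01 with shRNA2 (SE 0.0720, adjusted p = 1.6e-09). The main Fdft1 mRNA shares 26.96% of its bases with Ctsb, a lysosomal protease gene on the opposite strand, and those fragments were not counted. Ctsb itself was called lower, with log2 fold changes of -0.31 (adjusted p = 9.2e-04) and -0.62 (adjusted p = 1.3e-07). The main mRNA of Hmgcs1 shares 17.16% with the antisense gene Gm48342, and that of Idi1 shares 10.67% with Gm48574. Counting used no strand.

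Squalene epoxidase, Sqle (chr15:59315077-59331192, plus strand), which adds the oxygen of the first sterol precursor, was at 74.3, 69.1 and 74.7 CPM with shRNA1, 64.4, 63.2 and 63.0 CPM with shRNA2, and 118.5 and 118.7 CPM with nt-shRNA. The 3 groups were apart, each with little spread. For Sqle the log2 fold change was -0.71 with shRNA1 (SE 0.0612, adjusted p = 1.6e-07) and -0.90 with shRNA2 (SE 0.0616, adjusted p = 1.0e-09). No exonic base or 100-base stretch of Sqle occurs in another gene.

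**Figure D2:**
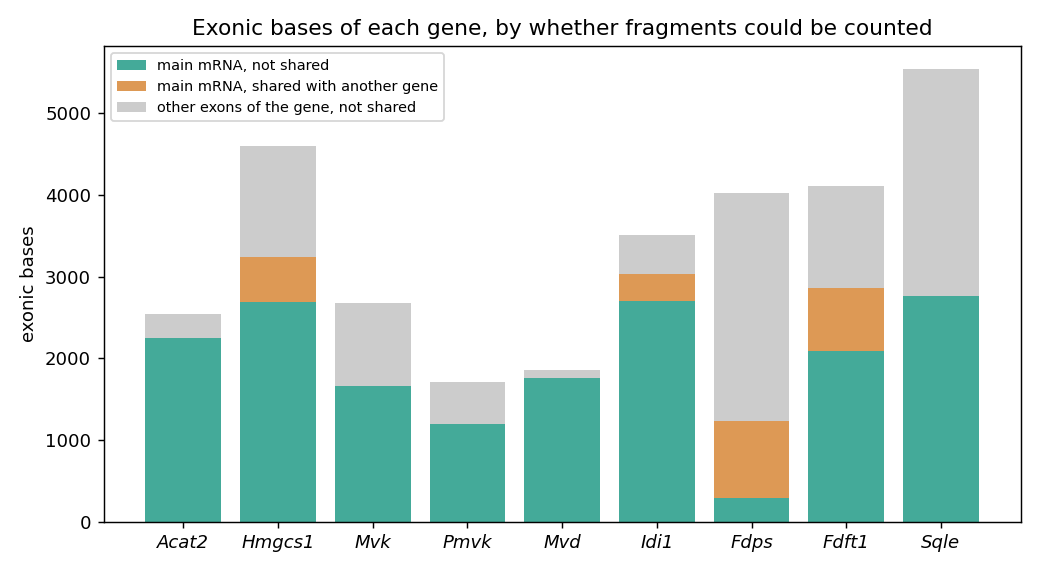
Exonic bases of each of the 9 genes, by whether fragments on them could be counted. The vertical axis is in bases, green is the main mRNA not shared with another gene, orange is the main mRNA shared with another gene, where fragments were not counted, and grey is other exons of the gene not shared with another gene. For Fdps, 945 of 1237 main mRNA bases are shared, and no other gene of the pathway has more than 26.96% shared.

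**Figure D3:**
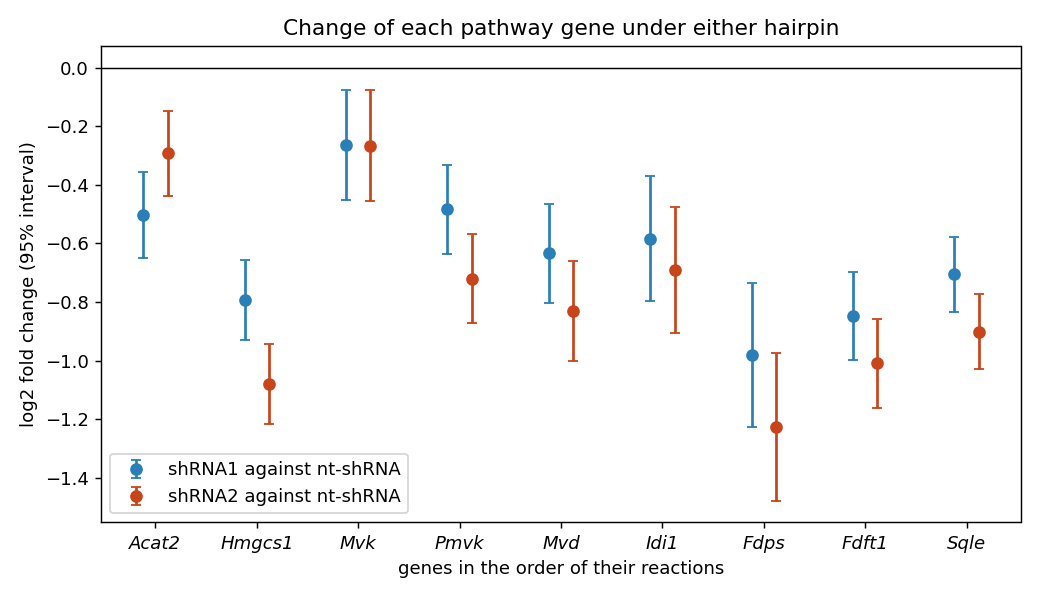
Log2 fold change of each gene against nt-shRNA, in the order of the reactions. Points are edgeR estimates and bars are 95% intervals, in blue for shRNA1 and red for shRNA2. Every interval lies below 0, and Mvk and, with shRNA2, Acat2 lie closest to it.

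The direct comparison of shRNA2 with shRNA1 asks whether the hairpin with the larger number of called genes also lowered this pathway further. Hmgcs1, Pmvk and Sqle were lower with shRNA2, Acat2 was higher, and 5 genes were not called, against 18.7% lower and 16.9% higher over all genes tested. The log2 fold change was -0.29 for Hmgcs1 (SE 0.0599, adjusted p = 0.0011), -0.24 for Pmvk (SE 0.0670, adjusted p = 0.00998) and -0.20 for Sqle (SE 0.0572, adjusted p = 0.0121). For Acat2 it was 0.21 (SE 0.0644, adjusted p = 0.0158), with all 3 shRNA2 libraries above all 3 shRNA1 libraries. Without shRNA1 replicate 2 the Acat2 difference was 0.19 and was not called (adjusted p = 0.0692). Hmgcs1, Pmvk, Mvd and Sqle had every shRNA2 library below every shRNA1 library, which 24.1% of all genes tested had, and Acat2 the reverse, which 23.6% had.

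The other 5 genes are bounded by their intervals. The log2 difference of Mvd was -0.20 with a 95% interval from -0.36 to -0.038 and an adjusted p of 0.0505, on the edge of the threshold. Fdft1 differed by -0.16 (-0.30 to -0.023, adjusted p = 0.0642) and Fdps by -0.25 (-0.49 to -0.0014, adjusted p = 0.11). Those 3 unadjusted intervals lie below 0, although none passed after adjustment. Idi1 differed by -0.11 (-0.31 to 0.095, adjusted p = 0.412) and Mvk by -0.0011 (-0.18 to 0.17, adjusted p = 0.994). Both intervals allow a change in either direction. Without shRNA1 replicate 2, 6 of the 9 genes were called lower with shRNA2 rather than 3, with Mvd, Fdps and Fdft1 added. In that fit, 2789 of all 17355 genes tested were called lower.

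**Figure D4:**
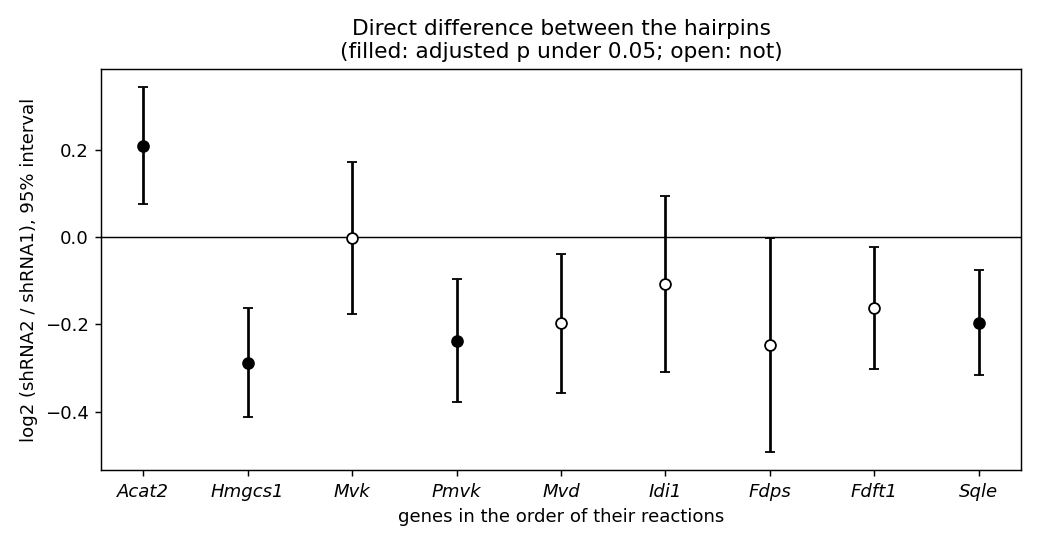
Log2 ratio of shRNA2 to shRNA1 for each gene in the order of the reactions, with 95% intervals. Filled points have an adjusted p under 0.05 and open points do not. Acat2 lies above 0, Hmgcs1, Pmvk and Sqle lie below it, and the interval of Mvk is nearly centred on it.

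To set the levels of different genes side by side, CPM was divided by the deposited exonic length in kilobases (RPKM). With nt-shRNA the order was Hmgcs1 at 71.1 RPKM, Pmvk at 52.2, Fdft1 at 46.5, Mvd at 45.6, Acat2 at 26.7, Sqle at 21.4, Mvk at 9.68, Idi1 at 8.78 and Fdps at 4.27 RPKM. Only the neighbours Fdft1 and Mvd overlapped between libraries. With shRNA1, Hmgcs1 (41.0 RPKM) overlapped Pmvk (37.3 RPKM), and Mvd (29.3 RPKM) overlapped Fdft1 (25.8 RPKM). With shRNA2 no neighbours overlapped, and Hmgcs1 was at 33.6 RPKM, Pmvk at 31.7, Mvd at 25.6, Fdft1 at 23.1, Acat2 at 21.8, Sqle at 11.5, Mvk at 8.05, Idi1 at 5.44 and Fdps at 1.82 RPKM. On the deposited length, Hmgcs1 thus came from 71.1 to within 2 RPKM of Pmvk with shRNA2, and Mvd stood above Fdft1 in both knockdowns. That length includes 774 of 4116 Fdft1 bases that are shared with Ctsb, where fragments were not counted. The main mRNA has 2860 bases for Fdft1 and 1756 for Mvd. Divided by these lengths, the mean CPM of Fdft1 lay above that of Mvd with shRNA1 and with shRNA2. With shRNA1 the libraries of both genes overlapped on that length. The place of Mvd above Fdft1 in the knockdowns therefore holds for the deposited length only. The order depends on the length used, since annotated exons outside the main mRNA count as length. All counts of a gene divided by the length of its main mRNA placed Fdft1 (66.9) above Mvd (48.3) with nt-shRNA, without overlap. Sqle (43.0) then came above Acat2 (30.1), and Fdps (14.5) above Idi1 (10.2). Counts on other exons are included in these values. Of the bases that could be counted, 50.27% for Sqle and 37.49% for Fdft1 lie outside the main mRNA. The values are therefore not levels of the main mRNA alone. The levels of Fdps on either scale carry the limit given above.

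The log2 CPM of each gene was compared over the 8 libraries with the mean of the other 8. Pearson's r was between 0.91 and 0.997 for Hmgcs1, Pmvk, Mvd, Idi1, Fdps, Fdft1 and Sqle, and was 0.84 for Mvk and 0.72 for Acat2. These values describe 8 libraries that fall into 3 groups and share their scaling. Outside all gene lists used here, the genes whose levels were most alike the mean of the 9 were Laptm4b, a lysosomal membrane protein (r = 0.997), Rps24, Rpl17 and Rpl5, proteins of the ribosome (0.997, 0.997 and 0.995), and Qars, a glutaminyl-tRNA synthetase (0.994). Their log2 fold changes with shRNA2 lay between -0.55 (Rpl17) and -0.38 (Qars), nearer to 0 than the median of the 9 genes (-0.83) but further from 0 than those of Mvk and Acat2. In all, 468 of the 17445 genes had r above 0.95, so the likeness is shared widely.

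Other gene lists around the pathway were described by their counts of calls. Over all genes tested, 17.1% were called lower and 13.8% higher with shRNA1, and 28.7% lower and 27.2% higher with shRNA2. Of 10 genes that turn lanosterol into cholesterol, 8 were lower with shRNA1 and 7 with shRNA2, none was higher, and the medians were -0.67 and -0.95. Cyp51, which removes the first methyl group of lanosterol, was at 198.8 ± 9.28 CPM with nt-shRNA (SD, n = 2), 102.4 ± 4.91 with shRNA1 (n = 3) and 66.2 ± 5.08 with shRNA2 (n = 3). Its log2 fold change in edgeR was -0.96 (adjusted p = 1.9e-08) and -1.59 (adjusted p = 1.1e-11). Dhcr7, which makes cholesterol in the last step, changed by -0.87 and -1.48, and Msmo1, a sterol methyl oxidase, by -1.18 and -1.27, all called. The decrease of Cyp51 differed between hairpins by -0.63 (adjusted p = 1.7e-06), and that of Dhcr7 by -0.61 (adjusted p = 1.7e-05).

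Of 16 genes of sterol sensing, uptake and export, 8 were lower and 1 higher with shRNA1, and 9 lower and 3 higher with shRNA2. The same shares of all genes tested, 17.1% lower and 13.8% higher, and 28.7% lower and 27.2% higher, stand beside these counts. Srebf2, which encodes SREBP2, was at 302.6, 291.4 and 367.3 CPM with shRNA1, 241.3, 242.9 and 265.1 CPM with shRNA2, and 611.0 and 568.8 CPM with nt-shRNA. The 3 groups did not overlap, and the log2 fold change was -0.88 (adjusted p = 2.8e-07) with shRNA1 and -1.24 (adjusted p = 5.1e-10) with shRNA2. Insig1, which holds SREBP in the endoplasmic reticulum and is itself an SREBP target, changed by -0.91 (adjusted p = 7.8e-08) and -1.49 (adjusted p = 3.6e-11). The sterol exporters Abcg1 and Abca1, both targets of liver X receptors, moved in opposite directions. Abcg1 changed by -0.61 (adjusted p = 6.5e-05) and -1.48 (adjusted p = 5.4e-10), and Abca1 by 0.46 (adjusted p = 2.6e-04) and 0.54 (adjusted p = 1.2e-05). Nr1h3, one of those receptors, was between 14 and 30 counts per library and was called higher only with shRNA2 (1.12, adjusted p = 0.0035); with shRNA1 its value was 0.52 (adjusted p = 0.222), and the difference between the hairpins was not called (adjusted p = 0.0754).

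Among 9 genes that supply acetyl units, 4 were lower and 1 higher with shRNA1, and 5 lower and 1 higher with shRNA2, against 17.1% lower and 13.8% higher, and 28.7% lower and 27.2% higher, of all genes tested. The count of 1 higher gene is not above the background with either hairpin. Acss1, a mitochondrial acetyl-CoA synthetase, was at 64.3 ± 1.25 CPM with nt-shRNA, 30.3 ± 1.16 with shRNA1 and 16.5 ± 1.65 with shRNA2, with log2 fold changes of -1.08 and -1.96 (edgeR adjusted p = 3.0e-08 and 1.1e-11). Slc25a1, the carrier that exports citrate from mitochondria, changed by -0.997 and -1.78 (adjusted p = 9.7e-07 and 1.7e-10). The mitochondrial thiolase Acat1 changed by -0.28 (adjusted p = 0.0125) and -0.87 (adjusted p = 4.6e-08), and its call with shRNA1 was lost without nt-shRNA replicate 1 (adjusted p = 0.0929) or nt-shRNA replicate 2 (0.0596), and with library size alone in place of TMM (0.137). Hadhb, a thiolase of fatty acid oxidation, rose by 0.47 (adjusted p = 3.4e-04) and 0.67 (adjusted p = 1.9e-06).

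The isoprenoid branches showed no larger share of calls than the background with shRNA2. The list held 17 genes of isoprenoid use outside sterols, mainly for prenyl groups, dolichol and ubiquinone. Of these, 5 were lower and 1 higher with shRNA1, and 3 lower and 4 higher with shRNA2, with medians of -0.076 and -0.029. Over all genes tested, 17.1% were lower and 13.8% higher with shRNA1, and 28.7% lower and 27.2% higher with shRNA2. Pdss1, which makes the side chain of ubiquinone, was at 16.2, 16.3 and 12.9 CPM with shRNA1, 22.4, 22.1 and 22.9 CPM with shRNA2, and 11.2 and 10.9 CPM with nt-shRNA. Pdss1 was higher in every knockdown library, by 0.45 (adjusted p = 0.0051) and 1.02 (adjusted p = 3.0e-07). Dolk, the dolichol kinase, rose with shRNA2 by 0.69 (adjusted p = 2.2e-04) and was 0.18 with shRNA1 (adjusted p = 0.325). Coq2, which attaches the ubiquinone side chain, fell with shRNA2 by 0.48 (adjusted p = 3.7e-05) and was -0.16 with shRNA1 (adjusted p = 0.131).

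In the ketone body branch, which starts from HMG-CoA and acetoacetyl-CoA, 4 of 5 genes were tested. One was lower and 1 higher with shRNA1, and 1 lower and 2 higher with shRNA2, against 17.1% lower and 13.8% higher, and 28.7% lower and 27.2% higher, of all genes tested. With 4 genes these counts are too few to be read against the background. Hmgcll1, an HMG-CoA lyase outside mitochondria, rose by 1.13 (adjusted p = 0.00195) and 1.91 (adjusted p = 1.7e-06) from 2.06 CPM with nt-shRNA. Bdh1, which interconverts ketone bodies, rose with shRNA2 by 0.39 (adjusted p = 5.5e-04), and its value with shRNA1 was 0.13 (adjusted p = 0.256). Oxct1, which activates ketone bodies for use, fell by 0.50 (adjusted p = 1.9e-05) and 0.84 (adjusted p = 7.7e-09).

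**Figure D5:**
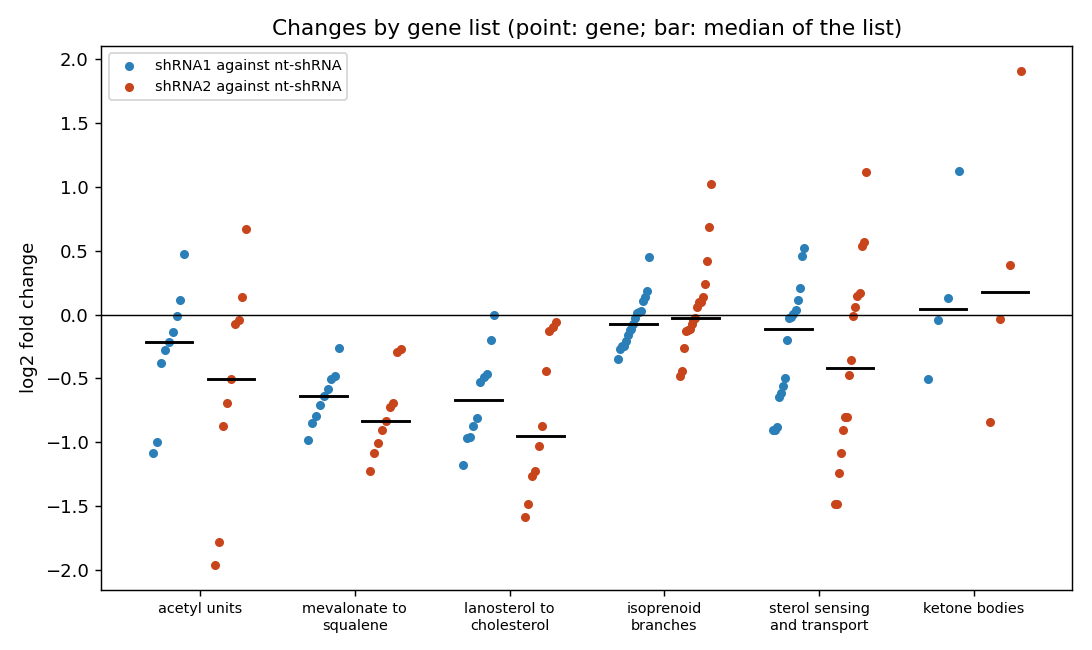
Log2 fold change of every tested gene of 6 lists against nt-shRNA, in blue for shRNA1 and red for shRNA2, with a bar at the median of each list. The mevalonate genes all lie below 0, the isoprenoid branch genes lie on both sides of it, and the medians of the lanosterol list are -0.67 and -0.95.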

How the data were processed

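RNA-seq of poly(A) RNA was used from 8 libraries: 3 for each of shRNA1 and shRNA2, and 2 controls (nt-shRNA). The authors aligned reads with STAR to mm10 and counted fragments on exons of GENCODE M24 genes with featureCounts 1.6.2. The deposited values are raw counts per gene, without normalization, counted without strand and without fragments that had several alignments or fell on more than 1 gene. The deposited gene length was used for RPKM. Identifiers were matched to GENCODE M21 symbols for 55144 of 55385 genes, and main mRNAs came from M21. Shared exonic bases were found with the deposited exon coordinates, which are those of M24, so their shares of a main mRNA combine both annotations. No per-sample column was left out.

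Counts of all 8 libraries were fitted together in R 4.3.3 with edgeR 4.0.16 (filterByExpr with minimum count 10, TMM, glmQLFit and glmQLFTest, a coefficient per group, no block), which pools the spread because nt-shRNA has 2 libraries. The biological coefficient of variation was 0.0638. P-values were adjusted by Benjamini-Hochberg over all 17445 genes. Standard errors came from the F statistic, and 95% intervals from t quantiles of the fit. DESeq2 1.42.0, its size factors, library size alone, other filters, only the groups compared, the replicate block and each library left out were alternatives. The log2 CPM used for likeness had a prior count of 2. Python 3.11.15, pandas 2.3.3 and matplotlib 3.10.9 were used.

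The 9 genes and all lists were chosen with earlier results of these data known, so no test was run over a list. Genes named were the 9 members, Eftud2, the 3 called genes of each other list with the largest change with shRNA2 and the called gene furthest in the other direction, genes that overlap or lie near a member, and the 5 genes most alike. The markers Klf4, Tbx3, Nanog, Dppa5a, Utf1, Neurod1, Nes, Col1a1, Col1a2, Col3a1, Lum and Dcn and the exporter Abca1 were named after their values were seen. Tested on simulated counts for shRNA2 against nt-shRNA (17058 genes), the code called 166 of 200 genes changed by known folds, 140 of 140 with a mean count of at least 100 and 26 of 60 below, with 5.14% of calls false. That split by mean count was made after a first criterion, a higher recovery over all 200, was not met. The changed genes all moved by the same fold, up or down (median log2 estimate 1.01 for those moved up), and every gene had the same spread. Smaller changes, a spread that differs between genes and a larger share of changed genes were not simulated. No library repeated another of its group within sampling noise (chi-square per gene between 3.12 and 12.2).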

Additional observations from a re-analysis of the deposited data

Results flagged for a closer look

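The effect of shRNA2 differed from that of shRNA1, both against nt-shRNA, by the direct edgeR test of the difference for 4 genes of the pathway. Over all genes tested, 18.7% were called lower and 16.9% higher by that test. The log2 difference, shRNA2 minus shRNA1, was 0.21 for Acat2, -0.29 for Hmgcs1, -0.24 for Pmvk and -0.20 for Sqle. Acat2 is the member whose decrease was smaller with shRNA2, and its difference was not called without shRNA1 replicate 2 (adjusted p = 0.0692).

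The same test called further genes named above. In the sterol lists the difference was -0.63 for Cyp51, -0.61 for Dhcr7, -0.36 for Srebf2, -0.58 for Insig1 and -0.87 for Abcg1. Among genes that supply acetyl units it was -0.88 for Acss1, -0.79 for Slc25a1, -0.59 for Acat1 and 0.20 for Hadhb. In the ketone body branch it was 0.78 for Hmgcll1, 0.26 for Bdh1 and -0.34 for Oxct1. In the isoprenoid branches it was 0.58 for Pdss1, 0.50 for Dolk and -0.32 for Coq2. Ctsb, which shares bases with Fdft1, differed by -0.31. The difference for Hadhb was lost in DESeq2 (adjusted p = 0.0536), with library size alone (0.081), with no filter (0.0836), with only the groups compared (0.0603) and when any 1 of 7 of the 8 libraries was left out, with an adjusted p of up to 0.204 without shRNA1 replicate 3. That for Bdh1 was lost without shRNA2 replicate 1 (adjusted p = 0.0716). Groups of 2 or 3 libraries were too small to be tested for single libraries that stand apart.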

How the results depend on the processing

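The decrease of every member but Mvk against nt-shRNA kept its direction and call with both hairpins under all alternatives run. Mvk also lost its call with library size alone (adjusted p = 0.209 with shRNA1 and 0.104 with shRNA2) and, with shRNA1, without the filter (0.0505) and with at least 10 counts in every library (0.0545). Library size alone, with no TMM scaling, moved the median of all genes with shRNA1 to 0.11 and the counts from 2981 lower and 2407 higher to 1713 lower and 4101 higher (70.5% higher in place of 44.7%). The share higher with shRNA2 went from 48.7% to 58.9%. The members' medians became -0.52 and -0.74, and the nt-shRNA levels in RPKM 8.32 for Idi1, 4.05 for Fdps, 44.0 for Fdft1 and 20.3 for Sqle. With all counts of a gene divided by its main mRNA length, chosen after seeing the data, they were 30.1 for Acat2, 101 for Hmgcs1, 15.6 for Mvk, 74.8 for Pmvk, 48.3 for Mvd, 10.2 for Idi1, 14.5 for Fdps, 66.9 for Fdft1 and 43.0 for Sqle.

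Between the hairpins, 5 members rather than 3 were lower with library size alone, with no filter and with the replicate block, Mvd and Fdft1 being added. In that order, these fits called 3542 of 17445, 3386 of 34367 and 3402 of 17445 genes lower. Mvd alone was added with DESeq2 size factors (adjusted p = 0.0492), only the groups compared (0.043), a filter of at least 10 counts in every library (0.0424), and without nt-shRNA replicate 1 (0.0473) or 2 (0.0487). Those fits called between 3147 and 3276 of all genes lower. Of other named genes, library size alone called Bdh1 (0.0315) and Tcp1 (0.0414) with shRNA1, and at least 10 counts in every library called the hairpin difference of Nr1h3 (0.0486). Leaving out 1 library at a time gave 3 to 6 members lower between the hairpins, with between 2318 and 3359 of all genes lower. The range of genes called with shRNA1 was 1700 to 3254 lower and 1248 to 2649 higher, with both lowest counts without nt-shRNA replicate 1, and 1531 were higher without nt-shRNA replicate 2. The members' median ranged from -0.72 to -0.56 with shRNA1 and from -0.90 to -0.74 with shRNA2. Whether a median moved was judged by the larger SD of the 2 groups, a measure chosen after the values were seen. Differences near 0 changed sign: Mvk was 0.00063 with the replicate block and ranged from -0.056 to 0.056 without single libraries, and without shRNA1 replicate 1 Idi1 was 0.018 and Msmo1 0.0035, within ranges that reached -0.20 and -0.16. The cause was not tested. Eftud2 with shRNA1 was called with no filter (adjusted p = 0.03), the replicate block (0.0206) and only the groups compared (0.0491), and without shRNA2 replicate 2 (0.0415) or shRNA2 replicate 3 (0.0215).

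Same-numbered libraries deviated together little (r between -0.026 and 0.074 over genes), and the main fit used no block. For qPCR the paper paired knockdown replicates with their control replicates, so these values do not settle whether the numbers pair the libraries. The replicate block gave 3324 lower and 2694 higher genes with shRNA1 and 5136 and 4898 with shRNA2, and kept all 9 members lower in both. With 2 control libraries, each decrease rests on a spread pooled over all groups and partly borrowed across genes. Among the 9 members Fdps had the fewest counts.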
